A study of Mus musculus with 4 samples.

Results

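The 41 genes described here encode the general machinery of RNA decay: the RNA exosome with its nucleases and helicases, the 5′ exonucleases, the deadenylases, the decapping complex and the factors of nonsense-mediated decay (NMD). They were chosen by symbol, and all 41 were found among the 16470 transcripts of the deposited mRNA table, with 1 transcript listed for each. The values are RNA levels of these genes, not levels of the proteins they encode. The series asked which RNAs a tagged mutant Dis3l2 protein binds, so the mRNAs of the other decay factors were candidates for recovery like any other transcript.

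Most mRNAs are degraded after their poly(A) tail is shortened. PAN2-PAN3 and the CCR4-NOT complex remove the tail, and the body is then degraded either from the 3′ end by the exosome or, after the cap is removed by Dcp2 and its partners, from the 5′ end by Xrn1. NMD marks transcripts with premature stop codons through the helicase Upf1 and its partners. Dis3l2 is a relative of the exosome nucleases Dis3 and Dis3l that acts without the exosome and prefers RNA with uridine tails.

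All samples were C57BL/6 mouse embryonic stem cells at passages 25 to 30, kept on gelatin without feeder cells in medium with LIF and serum. Cells received either a mutant Dis3l2 with a FLAG tag or a mock transfection; the sources used here do not give the mutation, the promoter or whether cells were pooled or came from 1 clone. Each condition gave 1 library of input RNA after RiboMinus removal of ribosomal RNA, and 1 library of the RNA held on anti-FLAG M2 gel (immunoprecipitation, IP). With 1 library per group there is no replicate check, and no p-value is given for any difference below.

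The mRNA table held 307324 (mutant) and 291175 (mock) input reads, and 2275647 (mutant) and 1860030 (mock) IP reads, of which 1 gene, Lars2, held 102380, 101393, 1182576 and 1089665. Of 10 embryonic stem cell markers, 9 or 10 had reads in each library, with 141 to 177 reads in the inputs and 2732 to 4004 in the IPs. Markers of fibroblasts, the usual feeder cells, had 16 (mutant) and 10 (mock) input reads, and 102 and 33 IP reads, over 4 listed genes. Col1a1 (73 and 23) and Thy1 (26 and 3) were higher in the mutant IP, Pdgfra (3 and 6) and Col1a2 (0 and 1) lower. Markers of endoderm, mesoderm, ectoderm and trophectoderm had 2, 3, 16 and 19 reads in the mutant input and 0, 2, 18 and 37 in the mock input. In the IPs they had 20, 14, 63 and 31 (mutant) and 26, 11, 69 and 38 (mock). The part of these markers in the results was not tested.

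The decay genes were thinly covered in the inputs and better covered in the IPs. Together they had 295 reads (mutant) and 244 reads (mock) as input, and 4140 and 3405 as IP. A median member had 3, 4, 60 and 41 reads in the same order. In each input 16 of the 41 genes had 0 reads, 8 of them in both inputs, and only 17 genes had reads in all 4 libraries. As a share of reads outside Lars2 the 41 genes made up 0.144% of mutant input (0.128 to 0.161, exact binomial 95%) and 0.129% of mock input (0.113 to 0.146). In the IPs they held more, 0.379% in the mutant (0.367 to 0.390) and 0.442% in the mock (0.427 to 0.457). With Lars2 counted, the IP shares were 0.182% (0.176 to 0.188) and 0.183% (0.177 to 0.189), so the lower share in the mutant IP was seen only with Lars2 left out. On the deposited scale the summed reads of the 41 genes gave a ratio of mutant IP to mock IP of 1.13 (1.08 to 1.18).

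**Figure D1:**
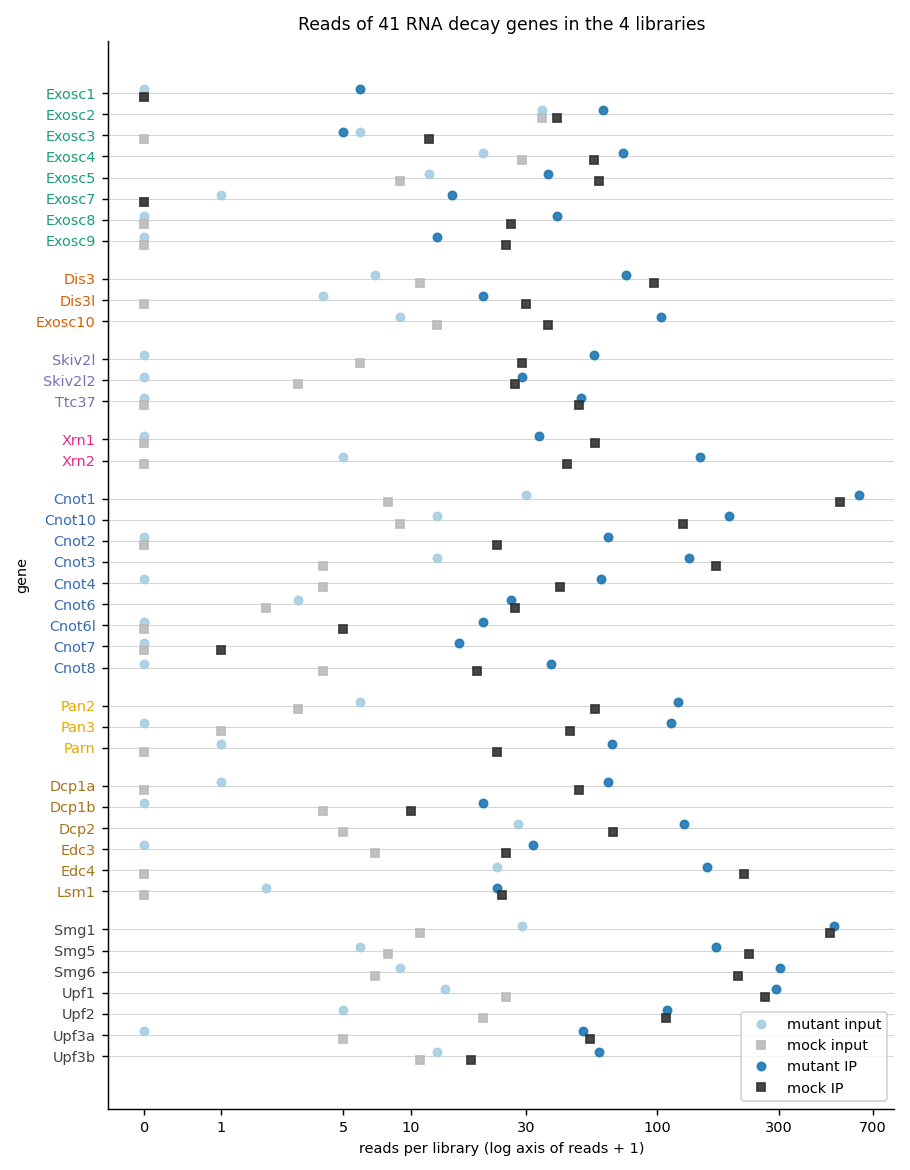
Reads of each of the 41 genes on a log axis of reads + 1, with circles for mutant and squares for mock libraries, pale for inputs and dark for IPs; gene names are grouped and coloured by role. Input points lie between 0 and 35 reads, whereas the IP points reach 618 for Cnot1.

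Mutant IP was set against mock IP, which shows what the gel held without the tagged protein. The median of the decay mRNAs lay slightly below that of transcripts in general, and the difference was not tested. Their median log2 ratio was 0.26, computed on deposited values + 1, against 0.38 over all 14273 transcripts measured. At or above the median of all transcripts were 20 of the 41 genes, and 21 were below it. At least 2-fold higher in the mutant IP were 10 of 41 genes (24.4%), where 28.8% of all transcripts were, and 1 gene was at least 2-fold lower, where 15.0% of all were. At least 4-fold higher were 2 genes, Exosc7 and Cnot7, against 10.1% of all transcripts, and 0 were 4-fold lower, against 5.74%. With a pseudocount of 5 the order of the 2-fold shares turned, with 8 genes (19.5%) higher against 13.0% of all transcripts. Fewer cells carrying an RNA and less of it per cell cannot be told apart in such bulk samples. The 10 genes that passed 2-fold upward were Exosc1, Exosc7, Exosc10, Xrn2, Cnot2, Cnot6l, Cnot7, Pan3, Parn and Upf3b.

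Pan2, Pan3 and Parn all lay above the median of all transcripts. Pan2, the nuclease of the PAN2-PAN3 complex, had 121 reads in the mutant IP against 57 in the mock, a ratio of deposited values of 1.97 (exact conditional 95% interval 1.42 to 2.74). Pan3, its partner that binds poly(A)-binding protein, had 113 and 45 reads and a ratio of 2.33 (1.63 to 3.36). Parn, a poly(A)-specific ribonuclease that also trims noncoding RNAs, had 66 and 23 reads and a ratio of 2.66 (1.63 to 4.48). All 3 were higher in the mutant IP, and their reads together gave 2.22 (1.8 to 2.76). These intervals compare 2 libraries and cover counting error only. In the inputs the 3 genes had 7 and 4 reads in all, too few for a comparison there.

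The 5′ exonucleases differed from each other, and 1 exosome nuclease was higher. Xrn2, the nuclear 5′ exonuclease involved in transcription termination, had 148 reads in the mutant IP against 44 in the mock, a ratio of 3.11 (2.21 to 4.47). Xrn1, the cytoplasmic enzyme that degrades decapped mRNA, had 34 and 57 reads, a ratio of 0.552 (0.350 to 0.859). The 2 genes of the pair therefore lay on opposite sides of 1, with intervals that did not overlap. Exosc10, the nuclear exosome nuclease, had 104 and 37 reads, a ratio of 2.60 (1.77 to 3.90).

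Dis3 and Dis3l, the nucleases that resemble Dis3l2, were not higher in the mutant IP. Dis3, the main catalytic subunit of the nuclear exosome, had 75 reads in the mutant IP against 97 in the mock, a ratio of 0.716 (0.522 to 0.978). Dis3l, its cytoplasmic counterpart, had 20 and 30 reads, a ratio of 0.617 whose interval held 1 (0.332 to 1.12). Reads assigned to Dis3l2 itself, whether from the cells or from the construct, numbered 127 and 21. Of the helicases, Skiv2l of the cytoplasmic SKI complex had 56 and 29 reads, a ratio of 1.79 (1.12 to 2.90). Its scaffold Ttc37 had 50 and 49 reads, and the nuclear helicase Skiv2l2 (Mtr4) 29 and 27, so both lay near 1.

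The core of the exosome was a mixed group, with a median log2 ratio of 0.37 over 8 genes. Exosc1 and Exosc7 had 0 reads in the mock IP, against 6 and 15 in the mutant IP. With the mock set to a floor of 3 reads they were 1.85- and 4.63-fold higher, and their exact intervals began at 1.09 and 3.32. Exosc3, a cap subunit that binds RNA, was the 1 gene past 2-fold downward on the scale of values + 1. It had 5 against 12 reads, with a ratio of 0.386 whose interval held 1 (0.106 to 1.18). These 3 genes were among the 4 with fewer than 20 IP reads.

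Better covered subunits of the core showed smaller differences. Exosc9 and Exosc5, subunits of the ring, were lower in the mutant IP, with 13 against 25 reads for Exosc9 (ratio 0.481, 0.226 to 0.977). That ratio is past 2-fold without a pseudocount, but on values + 1 the log2 ratio of Exosc9 was -0.92. Exosc5 had 37 against 59 reads (ratio 0.581, 0.374 to 0.891). Exosc2, Exosc4 and Exosc8 lay between 1.21 and 1.42 with intervals that held 1. Exosc2 had 61 and 40 reads, Exosc4 had 73 and 56, and Exosc8 had 40 and 26.

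CCR4-NOT, the main deadenylase complex, had 3 of 9 genes past 2-fold upward and 0 downward, where 28.8% and 15.0% of all transcripts passed. Cnot1, its scaffold and the best covered of the 41 genes, had 618 reads in the mutant IP against 524 in the mock; the ratio of 1.09 had an interval from 0.970 to 1.23. Cnot2 and Cnot3, which share a NOT-box domain and pair with each other, differed: Cnot2 had 64 and 23 reads (2.58, 1.58 to 4.35). Cnot3 had 134 and 171 reads (0.726, 0.574 to 0.915). Cnot10, which joins the complex through the end of Cnot1, had 192 and 126 reads (1.41, 1.12 to 1.78), close to the median of all transcripts, and Cnot4, a ubiquitin ligase, had 60 and 41 (1.36, 0.896 to 2.07).

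The catalytic subunits of CCR4-NOT come as 2 paralog pairs with few reads. Cnot7 had 16 reads in the mutant IP against 1 in the mock, a ratio of 14.8 with an interval from 2.30 to 621. Its paralog Cnot8 had 38 and 19 reads (1.85, 1.04 to 3.40). Cnot6l had 20 and 5 reads (3.70, 1.35 to 12.6) and Cnot6 26 and 27 (0.892, 0.5 to 1.59). Within each pair the intervals overlapped. How reads that fit both genes of a pair were counted is not stated in the labels.

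Of the 6 decapping genes 0 passed 2-fold in either direction, where 28.8% of all transcripts were higher and 15.0% lower, and their reads together gave 0.994 (0.865 to 1.14). Dcp2, the enzyme that removes the cap, had 128 reads in the mutant IP against 67 in the mock (1.77, 1.31 to 2.41). Edc4, the scaffold that brings Dcp2 and Xrn1 together, was on the other side, with 157 and 220 reads (0.661, 0.535 to 0.815). The activators Dcp1a and Dcp1b had 64 and 49, and 20 and 10 reads, and their ratios of 1.21 and 1.85 had intervals that held 1. Edc3, an enhancer of decapping, had 32 and 25 reads, and Lsm1, a subunit of the ring that binds deadenylated ends, 23 and 24.

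Of the 7 NMD genes only Upf3b passed 2-fold upward and 0 downward, where 28.8% and 15.0% of all transcripts did. Upf3b, which links the exon junction complex to NMD, had 59 reads in the mutant IP against 18 in the mock, a ratio of 3.03 (1.77 to 5.47). Its paralog Upf3a had 51 and 54 reads (0.874, 0.585 to 1.31), so that the intervals of the pair did not overlap. The central helicase Upf1 had 293 and 266 reads, at 1.02 (0.861 to 1.21), and Upf2, its bridge to the Upf3 proteins, 109 and 108, at 0.934 (0.710 to 1.23).

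The SMG factors of NMD were well covered and lay within 2-fold of 1. Smg1, the kinase that phosphorylates Upf1, had 495 reads in the mutant IP against 476 in the mock, at 0.963 (0.847 to 1.09). Smg5, an adaptor for phosphorylated Upf1, was lower, with 170 and 230 reads (0.684, 0.558 to 0.838). Smg6, the endonuclease of NMD, was higher, with 305 and 208 reads (1.36, 1.13 to 1.63).

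**Figure D2:**
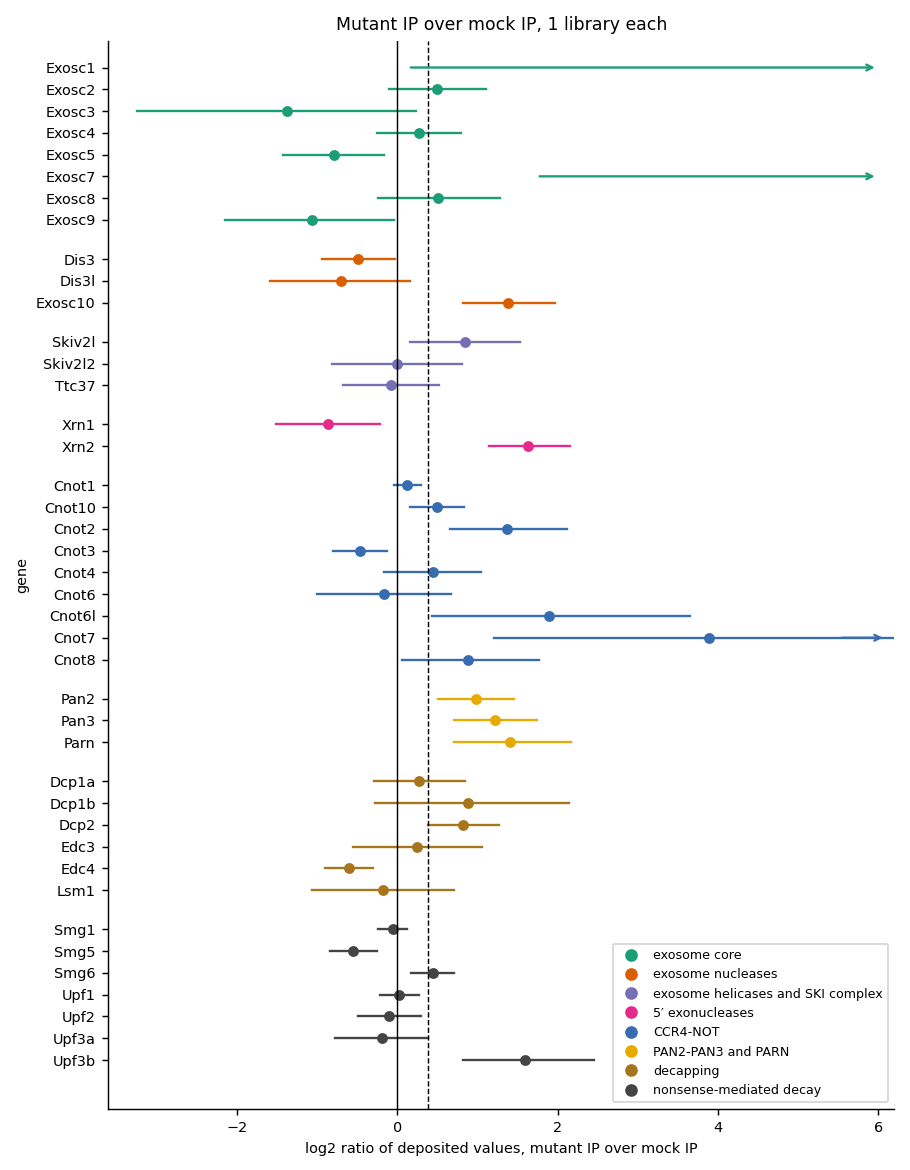
Log2 ratio of deposited values, mutant IP over mock IP, for each of the 41 genes grouped by role, with points for the ratio and lines for the exact conditional 95% interval; arrows run to the right where the mock IP had 0 reads (Exosc1 and Exosc7) or the interval leaves the axis (Cnot7). The solid line is a log2 ratio of 0 and the dashed line the median of all transcripts, 0.38 on the scale of values + 1; Pan2, Pan3, Parn, Xrn2 and Exosc10 lie wholly to the right of the dashed line, and Dis3, Xrn1, Edc4 and Smg5 to the left of the solid one.

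The ratios were also set against depth. The 8 genes with 300 or more reads in both IPs together (Cnot1, Cnot3, Cnot10, Edc4, Smg1, Smg5, Smg6 and Upf1) had a median log2 ratio of -0.01, between -0.59 and 0.49, against a median of 0.37 over the 1291 transcripts of that depth. None of the 8 passed 2-fold, and 6.97% of those transcripts were at least 2-fold higher. With 100 to 299 reads, 3 of 12 genes were at least 2-fold higher, against 18.4% of transcripts. With 50 to 99 reads it was 3 of 13, against 27.3%. With 20 to 49 reads it was 1 of 4, against 32.7%. Below 20 reads it was 3 of 4, against 38.2%. Among the 37 genes with at least 20 reads, 7 (18.9%) were 2-fold higher and 0 lower, against 23.8% and 7.72% of transcripts of that depth.

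**Figure D3:**
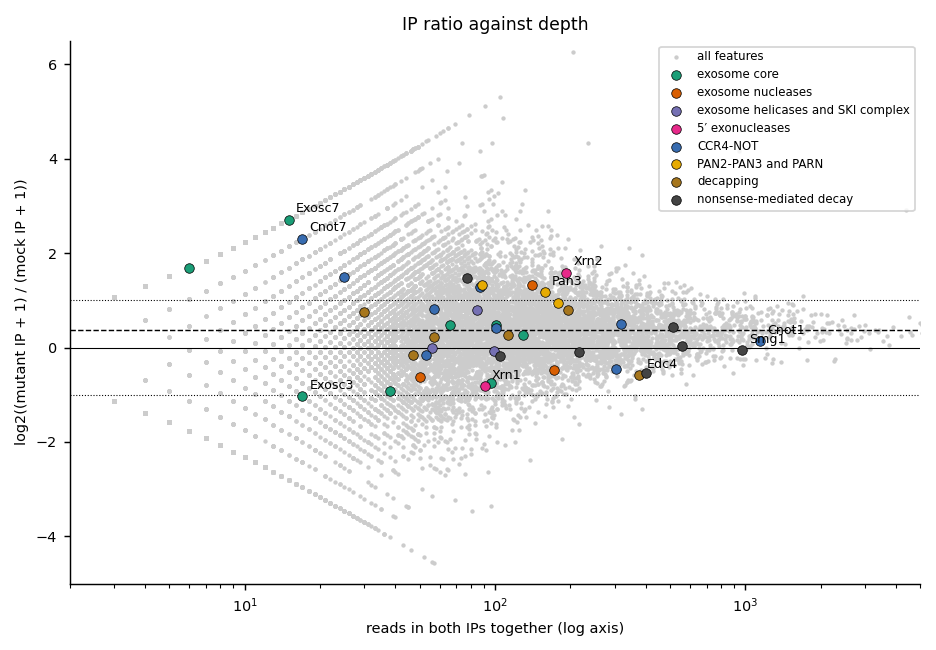
Log2 ratio of mutant IP over mock IP (deposited values + 1) against the reads in both IPs together, on a log axis, with grey points for all transcripts and coloured points for the 41 genes by role. Dotted lines mark 2-fold and the dashed line the median of all transcripts; the genes with 300 or more reads lie between -0.59 and 0.49, while Exosc7 and Cnot7 with under 20 reads reach 2.71 and 2.31.

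The scale between the libraries also set these counts. Centring each library on transcripts with 20 or more reads in all 4 libraries rescaled the IP values by -0.37 on the log2 scale. Through the pseudocount the ratios of single genes moved by between -0.81 and -0.05. It brought the median of the 41 genes to -0.09 with that of all transcripts at 0.04. Then 6 genes were at least 2-fold higher and 4 lower, against 18.6% and 16.6% of all transcripts. The 6 were Exosc1, Exosc7, Cnot6l, Cnot7, Xrn2 and Upf3b, and the 4 were Exosc3, Exosc5, Exosc9 and Xrn1. Pan3, Parn, Cnot2 and Exosc10 were below 2-fold there, at 0.80, 0.93, 0.89 and 0.94. The median of the 41 genes was 0.12 or 0.13 below that of all transcripts under each scaling tried, and 0.03 above it when no minimum value was set.

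Because the strand used in counting is not given, reads of genes that overlap a member cannot be told apart from its own. In a RefSeq annotation of GRCm38, used for names and neighbours only, 25 of the 41 genes overlap another gene, and for 15 such a neighbour is itself listed. Ccna2, which overlaps Exosc9, had 12 reads in the mutant IP against 57 in the mock, lower in the mutant like Exosc9. Supt20, which overlaps Exosc8, had 46 and 19 reads, and Vps37a, which overlaps Cnot7, 112 and 61. Both were higher in the mutant like the member they overlap, although the interval for Exosc8 held 1. Gdf1 and Cers1, which overlap Upf1, had 0 and 4 reads in the mutant IP against 18 each in the mock IP, whereas Upf1 itself was near 1. Other neighbours ran against their member. Leng1 had 19 and 11 reads over Cnot3, and Gm12191 71 and 37 over Cnot6, though both members had ratios below 1. Gm13427 had 0 and 10 reads over Exosc2, whose ratio was above 1. The neighbours named here are not the full list. The part of these neighbours in the members' values was not tested. Of the 10 genes at least 2-fold higher in the mutant IP, Xrn2, Upf3b, Exosc1, Exosc7, Exosc10 and Pan3 have no overlapping gene there, whereas Parn, Cnot2, Cnot6l and Cnot7 have 1 each.

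The inputs were compared to see whether the level of the decay mRNAs differed between mutant and mock cells. Only 29 genes were measured in this ratio, with a deposited value of at least 1 in an input, and most rested on a handful of reads. Of these, 9 were at least 2-fold higher in the mutant input and 8 at least 2-fold lower, against 37.0% and 21.8% of all transcripts. At least 4-fold higher were 4 genes, against 10% of all, and 0 were 4-fold lower, against 4.74%. The median was 0.57 against 0.51 over all transcripts, and with libraries centred it was 0.16 against 0.02. A single read counts 1.39 times as much in the mutant input as in the mock input, through the deposited scaling factors.

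Decapping genes gave the largest input differences. Edc4 had 23 reads in the mutant input and 0 in the mock input, 10.6-fold higher at a floor of 3 reads (interval from 7.98). Dcp2 had 28 and 5 reads, a ratio of 7.78 (2.97 to 25.8). Edc3 went the other way, with 0 and 7 reads, an interval from 0 to 0.964. The decapping genes together gave 4.69 (2.64 to 8.77), although Edc3 and Dcp1b, with 0 and 4 reads, had reads in the mock input alone.

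Cnot1, Cnot3 and the NMD kinase Smg1 were also higher in the mutant input. Cnot1 had 30 reads there and 8 in the mock input, a ratio of 5.21 (2.33 to 13.1). The snoRNA Gm26493, which overlaps Cnot1, had 99 and 15 input reads, higher in the mutant like Cnot1. Of its other neighbours, Setd6 had 2 and 0 input reads, and 4930513N10Rik, as listed among the mRNAs, 17 and 18. The part of these neighbours in the Cnot1 value was not tested. Smg1 had 29 and 11 reads (3.66, 1.78 to 8.12), and Cnot3 13 and 4 (4.51, 1.39 to 19.0). Upf2 was lower, with 5 and 20 reads (0.347, 0.102 to 0.953), while Upf1 had 14 and 25 (0.778, 0.374 to 1.55). Exosc3 had 6 and 0 reads, 2.78-fold higher at a floor of 3 reads (interval from 1.64). Xrn2 had 5 and 0, 2.31-fold higher at that floor (interval from 1.27).

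Most exosome genes with the most input reads were close in both inputs. Exosc2 had 35 reads in each, a ratio of 1.39 (0.844 to 2.29) after scaling. Exosc4 had 20 and 29 reads (0.958, 0.514 to 1.75), Exosc10 9 and 13 (0.962, 0.363 to 2.43) and Dis3 7 and 11 (0.884, 0.291 to 2.5). Exosc5 had 12 and 9 reads (1.85, 0.716 to 4.98). A difference was not detectable for these 5 genes at this depth. In 16 of the 41 genes reads were seen in 1 input and not in the other, 8 in each direction.

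**Figure D4:**
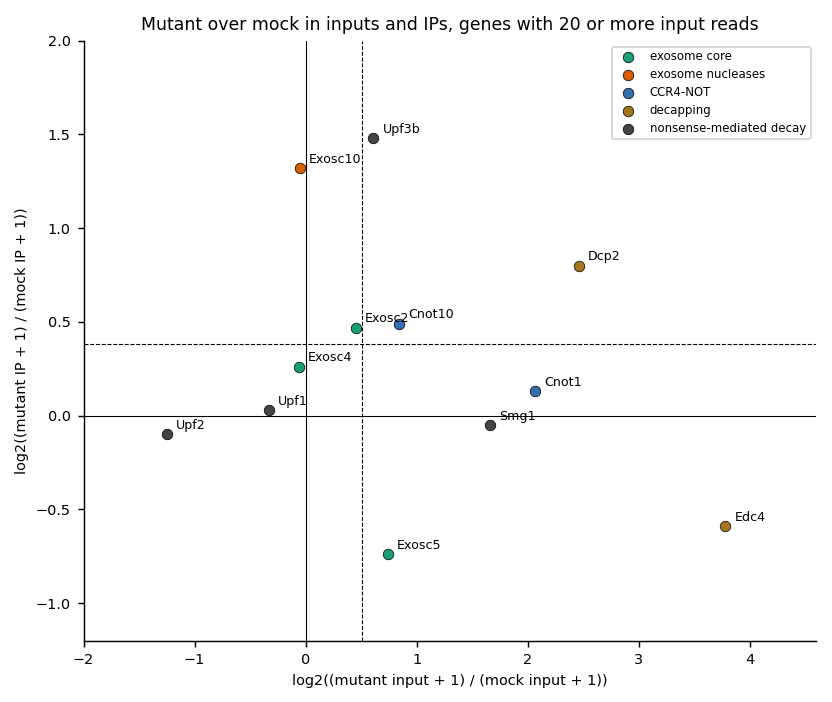
Log2 ratio of mutant over mock (deposited values + 1) in the inputs, horizontal, and in the IPs, vertical, for the 12 genes with 20 or more input reads, coloured by role; dashed lines mark the medians of all transcripts. Edc4, Dcp2, Cnot1 and Smg1 lie far to the right, between 1.66 and 3.78, with IP ratios between -0.59 and 0.80.

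Setting each IP against its own input shows which RNAs the gel retained, with or without the tagged protein. The labels name the RiboMinus step for the inputs alone, so its effect and that of the gel cannot be told apart in these ratios. Nearly all decay mRNAs were higher in the IP than in the input in both conditions. In the mutant 38 of 41 genes were at least 2-fold higher and 0 lower, against 81.5% and 7.24% of all transcripts, and in the mock 34 of 38 and 0, against 82.3% and 6.67%. At least 4-fold higher were 32 genes in the mutant and 29 in the mock, against 61.1% and 60.6%, and 0 in either were 4-fold lower, against 2.32% and 1.92%. The medians were 3.40 and 3.32, against 2.44 and 2.32 for all transcripts. Members pass the minimum mostly through the deeper IP, and at 20 or more reads the medians of all transcripts were themselves higher, 3.07 in the mutant and 3.02 in the mock, against 3.50 and 3.35 for the members.

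Some exosome genes and Upf3b had the lowest ratios of IP over input. Exosc2 reached 1.16 times its mutant input (0.755 to 1.81) and 1.14 times its mock input (0.708 to 1.85). Its log2 ratios turned from 0.21 and 0.18 to -1.31 and -1.49 with libraries centred. Exosc5 was at 2.06 (1.05 to 4.33) and 6.56 times (3.23 to 15.0). Exosc4 was at 2.43 (1.47 to 4.21) and 1.93 times (1.21 to 3.14). Upf3b was at 3.03 (1.64 to 6.01) and 1.64 times (0.732 to 3.83). The summed reads of the 8 core genes gave 2.25 (1.73 to 2.96) and 2.99 (2.28 to 3.95), but Exosc2 and Exosc4 held 55 of their 74 mutant and 64 of their 73 mock input reads. The other 6 core genes gave 4.07 (2.49 to 7.0) and 13.6 (6.91 to 30.4). CCR4-NOT gave 13.2 (10.2 to 17.4) and 30.2 (21.1 to 44.7), and NMD 13.0 (10.3 to 16.6) and 15.6 (12.6 to 19.6).

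At the other end, Edc4, Cnot1 and Smg1 were the highest in the mock on values + 1, and Pan3, Cnot2 and Cnot4 in the mutant. In the mutant Smg1 was near the members' median log2 ratio of 3.40, at 3.43, and Edc4 was below it, at 2.10. Cnot1 reached 13.7 times its mutant input (9.52 to 20.5) and 65.5 times its mock input (33.0 to 153). Smg1 was at 11.4 (7.82 to 17.2) and 43.3 times (24.0 to 87.3). Smg6 was at 22.6 (11.7 to 49.9) and 29.7 times (14.2 to 74.8). Edc4 reached 4.55 times its mutant input (2.93 to 7.39). It was 73.3-fold above its mock input, which had 0 reads, at the floor of 3 reads (interval from 59.1). Pan3 was 25.1-fold above its mutant input at the floor (interval from 20.1) and 45.0 times its mock input on 1 input read. Cnot2 and Cnot4 were 14.2- and 13.3-fold above their mutant inputs at the floor (intervals from 11.2 and 10.5).

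**Figure D5:**
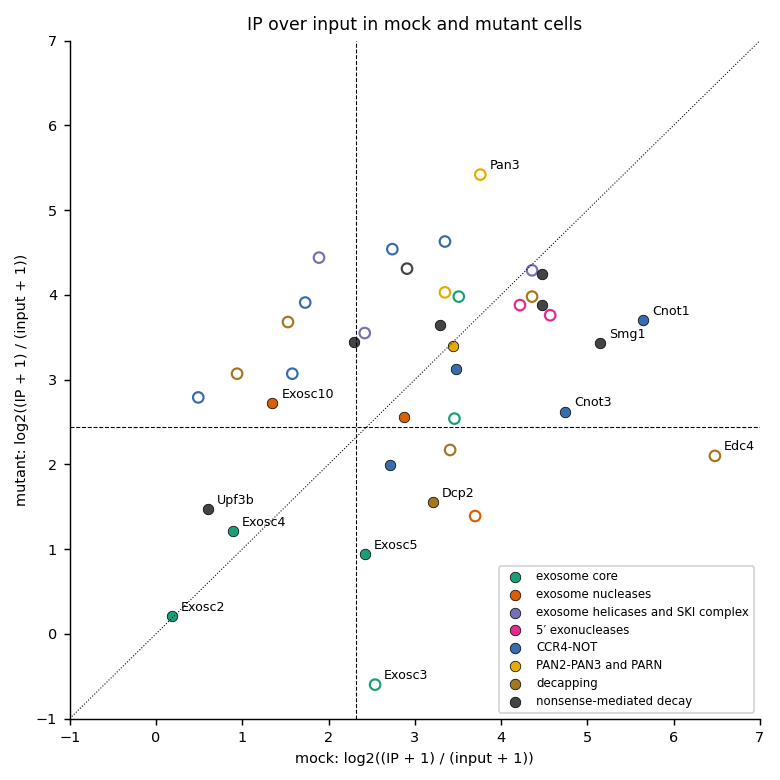
Log2 ratio of IP over input (deposited values + 1) in the mock, horizontal, and in the mutant, vertical, for the 39 genes with reads in the mock IP; filled points have reads in both inputs, open points 0 reads in at least 1 input, and colours give the role. Dashed lines mark the medians of all transcripts, 2.32 and 2.44, and the dotted line equal values; Exosc2 and Exosc4 lie near the lower left and Edc4, Cnot1 and Smg1 to the right of the dotted line.

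The specific IP enrichment divides IP over input in the mutant by that in the mock. It gave a median of 0.03 on the log2 scale for the decay genes, against 0.13 for all 15060 transcripts. At least 2-fold higher were 15 of 41 genes and at least 2-fold lower 9, against 31.5% and 26.6% of all transcripts. At least 4-fold higher were 6 and lower 4, against 13.8% and 10.6%. Of the 24 genes past 2-fold, 17 had 0 reads in at least 1 input, and for the 8 genes with 0 reads in both inputs the value repeats the IP ratio. Only 7 of the 24 had reads in all 4 libraries.

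The lowest and highest are given first among genes with reads in all 4 libraries. Cnot3 gave a ratio of ratios of 0.161 (exact conditional 95% interval 0.0375 to 0.538), Cnot1 0.210 (0.0824 to 0.474), Dcp2 0.227 (0.0658 to 0.637), Smg1 0.263 (0.117 to 0.550) and Exosc5 0.314 (0.106 to 0.907). In the inputs, reads of the overlapping snoRNA Gm26493 cannot be told apart from those of Cnot1. The highest were Exosc10 at 2.71 (0.969 to 7.75), Upf2 at 2.69 (0.931 to 9.46) and Upf3b at 1.85 (0.626 to 5.34), each with an interval that held 1. Skiv2l, Cnot8, Edc3 and Dcp1b reached log2 values of 2.55, 2.19, 2.15 and 2.13, the highest with 20 or more reads, with 4 to 7 reads in the mock input against 0 in the mutant input. Edc4, Exosc3 and Dis3l were lowest, at -4.37, -3.14 and -2.32, with 23, 6 and 4 reads in the mutant input against 0 in the mock input. In these 7 genes the IP ratio had the same sign as the specific value, from 0.22 to 0.81 in the first 4 and from -1.03 to -0.59 in the other 3. The IP ratio is itself a part of the specific value, so the shared sign is no separate support. The intervals of the IP ratio for Edc3, Dcp1b, Exosc3 and Dis3l held 1.

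Other genes of RNA decay, 60 by list and 53 in the table, had a median near 0 between the IPs. Of the 51 measured, 4 were at least 2-fold higher in the mutant IP and 8 lower, where 28.8% and 15.0% of all transcripts were, with a median of 0.03 on the log2 scale against 0.38; the difference from the 41 genes was not tested. Those 4 were Dhx34, Lsm3, Tob1 and Lsm4. Dhx34, a helicase of NMD, had 80 reads in the mutant IP against 7 in the mock (10.6, 4.91 to 27.2), the highest of the list. Ccrn4l (nocturnin) was the lowest, with 4 and 22 reads (0.168, 0.0422 to 0.496). The following 3 genes were chosen after their values were seen. Smg8 and Smg9, which bind Smg1 and restrain it, were both lower, with 27 and 56 reads (0.446, 0.271 to 0.719) and 18 and 45 (0.37, 0.202 to 0.653). Exosc6, the ring subunit of the exosome outside the 41 genes, had 22 and 37 reads (0.551, 0.309 to 0.958), on the same side as the ring subunits Exosc5 and Exosc9 and on the other side from Exosc4, Exosc7 and Exosc8.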

How the data were processed

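Both deposited tables list 1 column per library. Reads were aligned with Bowtie to mm9, per the submitters' processing notes; the labels state no counter, strand or treatment of multiple alignments. The deposited unit is a signal: 100% of the values were whole reads, within 0.02 reads, divided by 1.8 and 2.5 (inputs of mutant and mock) or 2.7 and 2.5 (IPs of mutant and mock), so reads were recovered. What the factors stand for is not given, and values were not divided by transcript length, so levels were not compared between genes. No count test was run, since each group holds 1 library. Log2 ratios used a pseudocount of 1 among transcripts with a deposited value of at least 1 in a library of the ratio. Ratios in the text are of deposited values without pseudocount. A library at 0 reads was set to a floor of 3 reads if its partner had over 3. The fold at that floor leaves out the partner's own counting error, so the lower limit of the exact interval is given beside it. Intervals are exact conditional binomial (ratio of ratios: conditional odds ratio) at 95%. PCR copies are not independent molecules. The ratio and interval code was tested on simulated IP libraries, with intervals checked at 20 or more reads (Python 3.11.15, scipy 1.17.1, pandas 2.3.3). Ratios at the low counts of the inputs, the floor and the ratio of ratios were not simulated. Genes given with all values were, per role, that with the highest mean, the 3 highest and 3 lowest per ratio with at least 20 reads, and 7 paralog pairs; the rest were added to account for all 41. Members, lists and rules were chosen with earlier results of these data known. The noncoding table, with 6311 transcripts, served for neighbours and library totals. Alternatives changed the pseudocount, the minimum value, the scaling and the transcript chosen.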

Additional observations from a re-analysis of the deposited data

Results flagged for a closer look

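For 9 of the 41 genes the log2 ratio of mutant over mock was above 0 in the inputs and below 0 in the IPs. For 9 others it was below 0 in the inputs and above 0 in the IPs. Beyond opposite signs, the rule asked for 20 or more reads in each pair. It also asked for a conditional interval of the ratio of ratios that left out 1. The genes that met the whole rule numbered 3. Only 12 of the 41 genes had 20 or more reads in the inputs together. The share of all transcripts that met the rule was not computed, so whether 3 is many cannot be told. Edc4 was higher in the mutant input (3.78 on the log2 scale) and lower in the mutant IP (-0.59), a specific enrichment of -4.37. Smg1 gave 1.66 and -0.05, a specific enrichment of -1.72, and the interval of its IP ratio held 1 (0.847 to 1.09). Exosc5 gave 0.74 and -0.74, a specific enrichment of -1.48, and the interval of its input ratio held 1 (0.716 to 4.98). The signs depend on the scale between libraries. With libraries centred, the IP ratio of Cnot1 turned from 0.13 to -0.24 while its input ratio stayed above 0, which would add it to these genes. Centring rescaled the inputs by -0.54 and the IPs by -0.37 on the log2 scale, which raises the ratios of ratios. The upper limit for Exosc5, 0.907, then passes 1, so centring would take Exosc5 off the list. With 1 library per group the difference between inputs and IPs was not tested.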

How the results depend on the processing

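No paired analysis was possible because each group holds 1 library. Summing transcripts changed no value, since each member has 1. Between the IPs the members' median turned from 0.26 to -0.09 with libraries centred on the median, -0.11 with equal totals without Lars2 and -0.05 with equal totals of both tables together, a setting chosen after seeing the data like the 20-read minimum, and was 0.09 with equal totals. In the first 2 settings 6 members were 2-fold higher, against 18.6% and 19.4% of all transcripts. Lower members numbered 4 in the 3 settings that turned the median, against 16.6%, 17.3% and 18.2%. They numbered 0 with a pseudocount of 5, a minimum of 5, equal totals or 20 reads, against 4.39%, 9.73%, 14.8% and 7.72%. The median of IP over input in the mutant, 3.40, was 3.68 and 1.93 with pseudocounts of 0.5 and 5, 2.01 centred, 1.46 with equal totals, 1.91 without Lars2 and 3.15 with both tables; in the mock, 3.32 became 3.54, 1.75, 1.96, 1.29, 1.83 and 3.05. With centring, equal totals and equal totals without Lars2, members lower by 2-fold numbered 2, 3 and 2 (mutant) or 1, 5 and 3 (mock), and equal totals left 21 higher in the mock. The median between the inputs, 0.57, was 0.29 with a pseudocount of 5, 0.00 with no minimum, 0.16 centred, 0.15 with equal totals, 0.12 without Lars2 and 0.20 with both tables. Higher and lower members there numbered 4 and 0 of 29 with a pseudocount of 5 (7.92% and 1.86% of all transcripts), 5 and 1 of 14 with a minimum of 5 (36.0% and 10%), and 4 and 1 of 12 with 20 reads (24.9% and 7.44%). The median specific enrichment turned from 0.03 to -0.14 with equal totals without Lars2 and to -0.05 with 20 reads. A pseudocount of 5 left 5 of 41 members higher, against 14.0% of all transcripts.

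Single members past 2-fold over input also changed sign. In the mutant, with equal totals, Dcp2 gave -0.68, Dis3l -0.47, Edc4 -0.11, Exosc4 -0.97 and Upf3b -0.66; without Lars2, Dcp2 -0.22, Dis3l -0.07, Exosc4 -0.52 and Upf3b -0.22; centred, Exosc4 -0.30 and Upf3b -0.01. In the mock, with equal totals, Cnot8 gave -0.36, Edc3 -0.75, Exosc10 -1.09, Skiv2l -0.36 and Upf2 -0.23; without Lars2, Edc3 -0.16 and Exosc10 -0.48; centred, Exosc10 -0.24. The cause was not tested beyond the change of scale. Input depth limits all ratios with an input, since 24 of the 41 genes had 0 reads in at least 1 input.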
